A study of Mus musculus with 18 samples.

Results

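Kidney RNA of 18 CD-1 mice, an outbred strain, was examined for 38 genes of the cell division cycle. The genes were chosen by name, and all 38 were present among the 78239 genes listed for each mouse: 27 act mainly in mitosis and 11 in DNA replication or the supply of nucleotides for it. Dams ate a diet with 8% (low protein, LP) or 18% (normal protein, NP) protein while pregnant and nursing, and of their offspring 10 males (5 LP and 5 NP) and 8 females (5 LP and 3 NP) were sequenced at 6 wk of age, 1 library per mouse. Every mouse was wild type, ate the NP diet from weaning on, was injected with cationic ferritin for imaging, and was perfused with saline before a piece of its left kidney was taken. The males were killed 90 min and the females 24 h after their final dose of ferritin, so sex and collection time cannot be told apart. The sources used here do not say which mice were littermates, and mice of a group may share a litter, so P values measure the spread between mice and not between dams.

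A cell copies its DNA once before it divides. The MCM proteins, encoded by *Mcm2* to *Mcm7*, form the ring-shaped helicase that opens DNA at origins of replication, PCNA is the clamp that holds DNA polymerases on their template, and RRM1, RRM2, TYMS, and TK1 make or salvage deoxynucleotides. Mitosis genes such as *Cdk1*, *Ccnb1*, *Aurkb*, and *Top2a* are transcribed later in the cycle, and the marker of dividing cells, *Mki67*, belongs with them. In the adult kidney most tubule cells are quiescent and reenter the cycle mainly after injury. Many promoters of replication genes carry sites for E2F factors, and many promoters of mitosis genes carry a cell cycle homology region (CHR) and CCAAT boxes, which NF-Y binds.

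These elements were searched as plain letters in the promoters of the members, because the members are known to be transcribed together in dividing cells. A promoter was taken as 270 bases before to 30 bases after the start of the canonical GENCODE vM39 transcript on GRCm39, and both strands were read. A CCAAT box (CCAAT) was found in 19 of 27 mitosis promoters (70.4%) and 7 of 11 replication promoters (63.6%), against 40.4% of the 21770 promoters of protein-coding genes. The CHR (TTTGAA) was found in 14 mitosis promoters (51.9%) and 2 replication promoters (18.2%), against 18% of all promoters. An E2F site (TTTGGCGC, TTTCCCGC, TTTCGCGC, or TTTGCCGC) was found in 1 mitosis promoter (3.7%), that of *Cdk1*, and in 4 replication promoters (36.4%), those of *Mcm3*, *Mcm4*, *Mcm5*, and *Mcm6*, against 2.66% of all promoters. At least 2 CCAAT boxes stood in 44.4% of mitosis promoters and 45.5% of replication promoters, against 13.1% of all. None of these letters were found in the windows of *Aurka*, *Birc5*, *Ccna2*, *Kif2c*, *Tpx2*, *Mcm7*, *Pcna*, *Tk1*, and *Tyms*. A match is a description of the letters and not a bound site.

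The promoters of *Mcm6* (chr1:128287423-128287722, minus strand) and *Rrm1* (chr7:102090620-102090919, plus strand) are shown because these were the most abundant replication members with a searched motif, and those of *Mki67* (chr7:135318270-135318569, minus strand) and *Top2a* (chr11:98915012-98915311, minus strand) because these were the most abundant such mitosis members. *Ube2c* (chr2:164611548-164611847, plus strand) and *Cenpe* (chr3:134918028-134918327, plus strand) were added after their values had been seen, because they differed between the sexes in opposite directions. Coordinates are on GRCm39, sequences read 5′ to 3′ along the gene, and capitals mark a CCAAT box, CHR, or E2F site on either strand. 
Mcm6: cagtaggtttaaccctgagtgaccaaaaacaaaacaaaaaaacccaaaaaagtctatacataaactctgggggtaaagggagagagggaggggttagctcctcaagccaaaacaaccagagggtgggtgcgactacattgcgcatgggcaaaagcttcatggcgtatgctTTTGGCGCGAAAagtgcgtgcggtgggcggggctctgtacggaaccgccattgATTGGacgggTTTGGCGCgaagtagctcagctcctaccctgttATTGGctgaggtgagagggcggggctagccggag
Rrm1: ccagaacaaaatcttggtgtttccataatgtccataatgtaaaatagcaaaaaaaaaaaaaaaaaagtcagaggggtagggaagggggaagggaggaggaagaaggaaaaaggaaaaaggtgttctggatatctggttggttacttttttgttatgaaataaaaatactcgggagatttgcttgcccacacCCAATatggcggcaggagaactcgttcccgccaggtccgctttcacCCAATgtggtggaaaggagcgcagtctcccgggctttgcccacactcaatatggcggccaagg
Mki67: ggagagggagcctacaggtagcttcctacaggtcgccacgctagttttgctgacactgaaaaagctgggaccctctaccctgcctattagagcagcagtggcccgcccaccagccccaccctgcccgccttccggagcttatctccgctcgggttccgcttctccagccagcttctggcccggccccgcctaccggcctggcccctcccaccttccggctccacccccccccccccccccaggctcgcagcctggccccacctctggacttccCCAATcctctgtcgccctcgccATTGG
Top2a: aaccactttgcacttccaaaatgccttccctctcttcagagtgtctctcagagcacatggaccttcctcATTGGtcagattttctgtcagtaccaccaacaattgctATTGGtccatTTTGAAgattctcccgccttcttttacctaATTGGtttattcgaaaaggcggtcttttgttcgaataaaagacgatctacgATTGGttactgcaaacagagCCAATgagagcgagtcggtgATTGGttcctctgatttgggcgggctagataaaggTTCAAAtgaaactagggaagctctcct
Ube2c: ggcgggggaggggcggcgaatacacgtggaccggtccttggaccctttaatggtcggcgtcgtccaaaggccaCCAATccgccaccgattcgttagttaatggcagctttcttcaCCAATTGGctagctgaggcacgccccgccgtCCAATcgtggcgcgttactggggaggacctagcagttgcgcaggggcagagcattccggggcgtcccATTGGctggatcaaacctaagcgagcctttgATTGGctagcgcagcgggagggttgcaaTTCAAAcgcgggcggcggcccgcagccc
Cenpe: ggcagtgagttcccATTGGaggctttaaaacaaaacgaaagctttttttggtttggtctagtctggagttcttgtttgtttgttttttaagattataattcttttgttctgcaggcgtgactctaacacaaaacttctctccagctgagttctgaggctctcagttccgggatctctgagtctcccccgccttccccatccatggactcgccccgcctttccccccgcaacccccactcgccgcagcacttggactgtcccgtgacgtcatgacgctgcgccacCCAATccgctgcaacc
The *Mcm6* window held 3 E2F sites, 2 of which overlap, and 2 CCAAT boxes. The *Top2a* window held 6 CCAAT boxes and 2 CHRs, and that of *Ube2c* held 6 CCAAT boxes, 2 of which overlap on opposite strands, and 1 CHR. The *Rrm1*, *Mki67*, and *Cenpe* windows held 2 CCAAT boxes each and no CHR or E2F site.

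The libraries held 14050486 to 23562411 reads that counted toward a gene on either strand, of which 1810 to 5029 fell on the 38 members. Levels are given in CPM, the count of a gene scaled to a common total of counted reads. Among the members, 21 had at least 10 counts in every library, namely all 11 replication genes and 10 mitosis genes, and 18 members overlap a gene on the opposite strand, from which their reads cannot be told apart (for example *Cdk1* with *Ank3*, *Ube2c* with *Tnnc2*, and *Mcm7* with *Cops6*). In a piece of whole tissue, fewer dividing cells and less RNA per dividing cell cannot be told apart either. All 8 proximal tubule markers were detected in every library, with summed levels of 15893 to 23580 CPM, and *Six2*, which defines nephron progenitors, had 0 counts in 17 of 18 libraries. Of the 8 nephron progenitor markers listed, *Six2* among them, 3 were detected in every library, and the 8 summed to 25.0 to 61.9 CPM. LP female 1, LP female 2, and NP female 3 stood apart from the other females: a list of 10 interferon-induced genes summed to 139, 196, and 100.3 CPM in them and to 981 to 3851 CPM in the others, and 6 glucocorticoid-induced genes summed to 251, 279, and 499 CPM against 1049 to 1452 CPM. Results in females are therefore also given without these 3 libraries.

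Replication genes were the more abundant members. Per kb of exon, their mean level over the 18 libraries ran from 0.872 CPM (*Mcm5*) to 4.94 CPM (*Mcm6*), with a median of 1.54 CPM per kb, and that of mitosis genes from 0.0790 CPM (*Cenpf*) to 1.06 CPM (*Cdc20*), with a median of 0.317 CPM per kb. *Mcm6* (chr1:128259311-128287516), *Pcna* (chr2:132091082-132095234), and *Mcm7* (chr5:138162844-138170684) were the 3 highest, at 4.94, 4.41, and 3.00 CPM per kb. *Cdc20*, the activator of the anaphase-promoting complex, was the only mitosis gene among the 10 highest, and the mitosis genes that followed were *Ccnb2*, which encodes cyclin B2, at 0.672 CPM per kb, *Ube2c*, the ubiquitin-conjugating enzyme of that complex, at 0.604 CPM per kb, and *Mki67* at 0.587 CPM per kb. The lowest were *Bub1* (0.0870 CPM per kb), a kinase of the spindle checkpoint, *Anln* (0.0971 CPM per kb), an actin-binding protein of the cleavage furrow, and *Cenpf*, a kinetochore protein. *Bub1* had 0 counts in NP male 1, NP male 3, and NP female 3, *Ccna2* (cyclin A2) and *Hmmr* (a spindle-associated protein) in NP male 1, and *Kif20a* (a kinesin of the central spindle) in NP female 3. A count of 0 allowed up to 0.195 CPM in NP male 1, 0.182 CPM in NP male 3, and 0.207 CPM in NP female 3, for counting error only.

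**Figure D1:**
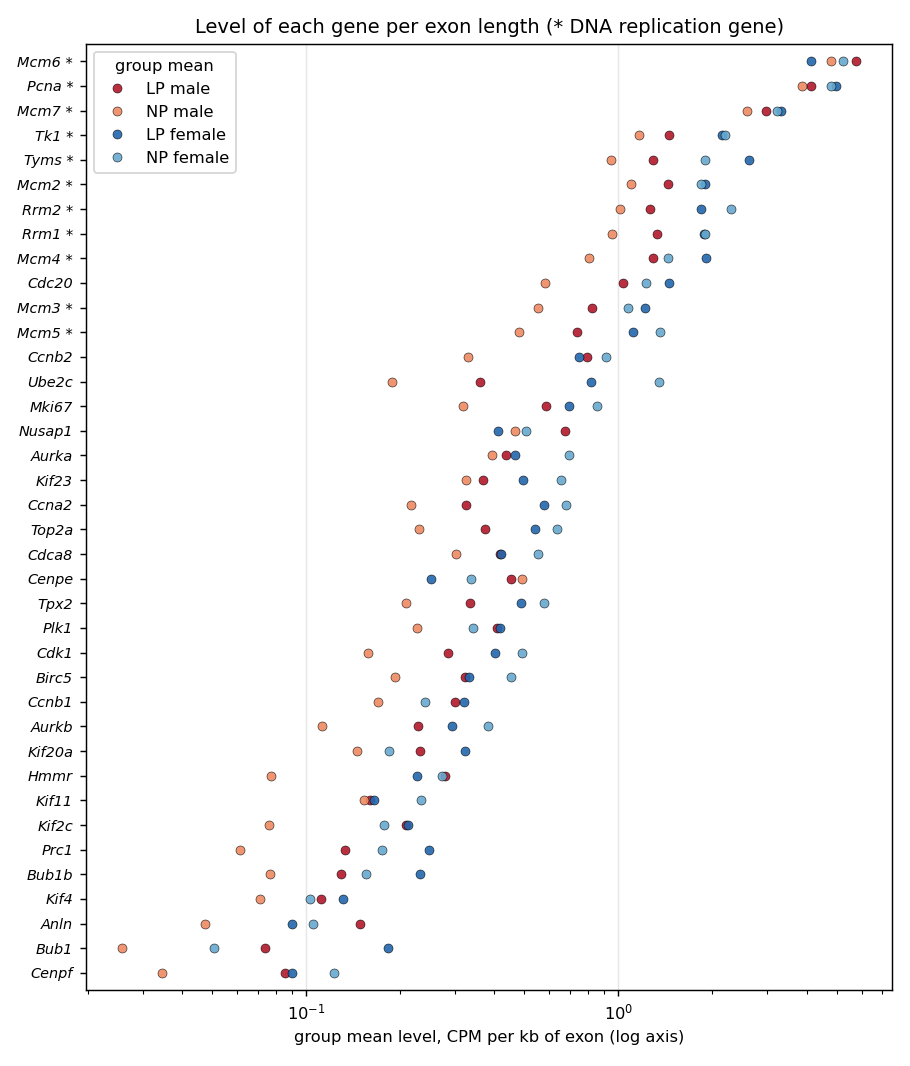
Mean level of each of the 38 genes in the 4 groups, in CPM per kb of exon on a log axis, ordered by the mean over all libraries; points are group means without error bars, and asterisks mark the DNA replication genes. The 11 replication genes fill 11 of the top 12 places, with Mcm6 highest at 4.94 CPM per kb and Cenpf lowest at 0.0790 CPM per kb.

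Because many members were low, counts were first summed over them in each library. In LP males 1 to 5 the 38 members summed to 224, 183, 146, 164, and 153 CPM, and in NP males 1 to 5 to 123, 132, 131, 118, and 144 CPM. Every LP male lay above every NP male, with 223.9 and 183 CPM in LP males 1 and 2 well above the other 3. In LP females 1 to 5 the sums were 222, 277, 177, 166, and 208 CPM, and in NP females 1 to 3 they were 215, 219, and 222 CPM. The NP females lay within the range of the LP females, and 17 of the 38 genes were highest in LP female 2. The mean was 174 ± 31.2 CPM in LP males, 129.7 ± 10.1 CPM in NP males, 209.9 ± 43.8 CPM in LP females, and 219 ± 3.57 CPM in NP females (SD), which made LP over NP ratios of 1.34 in males and 0.959 in females. These sums are descriptions, and no test was made of them.

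The 2 groups of genes were also summed apart. Mitosis genes summed to 65.6, 66.1, 35.3, 43.7, and 38.5 CPM in LP males and 25.2, 32.1, 34.3, 32.4, and 34.9 CPM in NP males, a ratio of means of 1.57, but LP male 3, at 35.3 CPM, was almost level with NP male 5, at 34.9 CPM. Replication genes summed to 158, 117, 111, 120.0, and 114 CPM in LP males and 97.5, 100, 96.7, 85.7, and 109 CPM in NP males, a ratio of 1.27, again without overlap. LP males 1 and 2 held the highest male value of most genes, 21 and 14 of the 38 respectively, and were the shallowest LP male libraries. Without these 2 libraries the ratios were 1.19 for all members, 1.23 for mitosis genes, and 1.18 for replication genes. In females the LP over NP ratio was 0.864 for mitosis genes and 0.999 for replication genes, and 0.840 and 0.846 without the 3 libraries that stood apart.

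**Figure D2:**
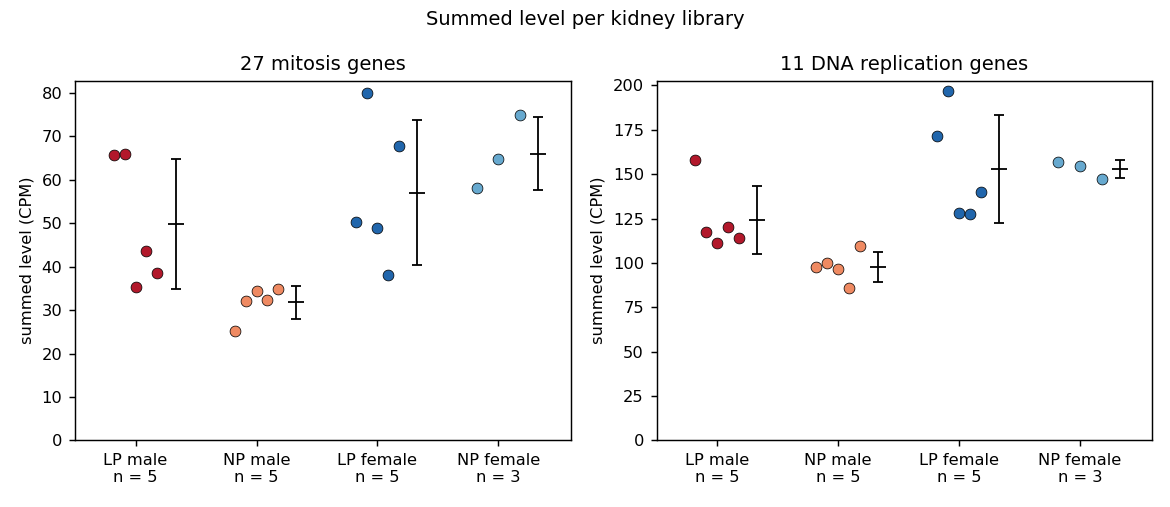
Summed level of the 27 mitosis genes (left) and the 11 DNA replication genes (right) in each library, in CPM; each point is 1 mouse, and bars show the mean ± SD of each group. LP males 1 and 2 stand highest among males for mitosis genes, at 65.6 and 66.1 CPM, and no LP male lies within the NP male range in either panel.

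To ask how the maternal diet bore on each gene in males, LP and NP males were compared with edgeR's quasi-likelihood test, with P values adjusted by the Benjamini-Hochberg method over 13181 genes with at least 10 counts in each of the 10 libraries. None of the 21 members tested passed an adjusted P of 0.05, against 5 of all genes (0.0379%), and DESeq2 also called 0. The log2 difference, LP minus NP, was above 0 for 20 of the 21 members, against 48.8% of all genes, with a median of 0.43 against -0.0039 over all genes. This held for 9 of 10 mitosis genes (median 0.47) and for all 11 replication genes (median 0.38). An unadjusted P under 0.05 was reached by 6 members, all with LP higher, against 3.84% of all genes, or 2.22% with LP higher. Without LP males 1 and 2, 16 of 21 log2 differences were above 0, the median was 0.20, and 1 member had an unadjusted P under 0.05. Leaving out LP male 1 alone also left 1 such member, with a median of 0.29. The members share libraries, so these counts describe the libraries and are not 21 separate results.

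Of the replication genes, *Mcm4* had the smallest P value. *Mcm4* (chr16:15440211-15455264) was at 9.39, 5.38, 5.58, 7.94, and 6.15 CPM in LP males 1 to 5 and at 4.36, 4.75, 4.43, 3.20, and 4.73 CPM in NP males 1 to 5. It was the 1 member of the 21 whose LP and NP males did not overlap, a pattern that 0.303% of all genes showed with LP higher. The log2 difference was 0.65 (SE 0.19, 1.57-fold), with an unadjusted P of 0.00431 and an adjusted P of 0.9996 by edgeR, and an exact two-sided permutation test gave P = 0.00794, the smallest it can give for 5 against 5 mice. *Mcm2*, another subunit of the helicase, was at 14.4, 10.5, 11.5, 9.82, and 10.8 CPM in LP males and 8.40, 9.44, 9.83, 7.90, and 7.81 CPM in NP males. 4 of 5 LP males lay above all NP males, and the log2 difference was 0.38 (SE 0.14, unadjusted P = 0.0190, adjusted P = 0.9996, edgeR).

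*Rrm1*, the large subunit of ribonucleotide reductase, was at 21.8, 12.8, 12.1, 17.4, and 13.9 CPM in LP males and 11.4, 14.1, 9.29, 8.68, and 12.5 CPM in NP males, where LP males 1 and 4 were the 2 above all NP males. Its log2 difference was 0.46 (SE 0.18, unadjusted P = 0.0253, edgeR), and that of *Mcm5* was 0.58 (SE 0.26, unadjusted P = 0.0451). The remaining members among the 6 most abundant did not reach an unadjusted P of 0.05. *Mcm6* was at 38.4, 26.3, 32.6, 29.8, and 29.1 CPM in LP males and 30.8, 22.8, 23.3, 24.2, and 28.9 CPM in NP males, overlapping, with a log2 difference of 0.24 (SE 0.13, unadjusted P = 0.0848, edgeR). *Mcm7* was at 19.4, 14.8, 14.2, 18.3, and 16.6 CPM against 14.5, 15.3, 14.4, 10.4, and 17.5 CPM, with a difference of 0.18 (SE 0.14). Both genes had LP males inside the NP male range. *Tk1*, thymidine kinase of the salvage route, was at 12.1, 11.2, 7.92, 8.17, and 8.96 CPM against 6.32, 8.19, 9.47, 7.11, and 7.86 CPM (log2 difference 0.29, SE 0.17), and *Tyms*, thymidylate synthase, at 11.7, 6.70, 9.39, 5.55, and 8.42 CPM against 5.86, 5.82, 6.01, 5.02, and 7.92 CPM (0.43, SE 0.21). In both, the highest LP male was LP male 1 and the groups overlapped. Log2 differences of 0.54 for *Mcm3* (SE 0.30), 0.29 for *Rrm2*, the small reductase subunit (SE 0.24), and 0.082 for *Pcna* (SE 0.14) completed the replication genes.

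Of the mitosis genes with at least 10 counts in every male, *Mki67* had the smallest P value. *Mki67* (chr7:135291513-135318299) was at 9.11, 7.66, 3.35, 6.19, and 3.78 CPM in LP males 1 to 5 and 1.89, 3.86, 5.04, 3.46, and 2.14 CPM in NP males 1 to 5. LP males 1, 2, and 4 lay above all NP males, and LP males 3 and 5 lay among them. The log2 difference was 0.85 (SE 0.33, 1.80-fold, unadjusted P = 0.0237, adjusted P = 0.9996, edgeR), and the exact two-sided permutation test gave P = 0.0556. *Tpx2*, which activates Aurora A on the spindle, had a log2 difference of 0.64 (SE 0.27, unadjusted P = 0.0366, exact permutation P = 0.0397), with 4 of 5 LP males above all NP males. *Top2a*, the topoisomerase that untangles sister chromatids, had a difference of 0.66 (SE 0.32), *Cdc20* of 0.78 (SE 0.41), *Nusap1*, a spindle-bundling protein, of 0.52 (SE 0.28), and *Cdca8*, a subunit of the chromosomal passenger complex, of 0.43 (SE 0.23). None of these 4 reached an unadjusted P of 0.05. The mitotic kinesins *Kif23* (0.16, SE 0.34) and *Kif11* (0.033, SE 0.31) and the kinase *Aurka* (0.11, SE 0.29) lay near 0, and *Cenpe*, a kinetochore motor, was the 1 member below 0, at -0.14 (SE 0.21).

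Lower members entered under a looser filter on counts, edgeR's filterByExpr, which left 34 members among 14985 genes. No member passed the adjusted threshold, against 0.0334% of those genes. Log2 differences were above 0 for 33 of 34 members, against 48.9% of genes, and 12 members, against 2.24% of genes, had an unadjusted P under 0.05 with LP higher. This filter can pass a gene through the group in which it is high, and the counts over these 34 are therefore descriptions only. For a gene with fewer than 10 counts in some library, the values in males are given without P values. *Anln*, *Ccnb2*, and *Mcm4* were the members without overlap between LP and NP males, and 0.367% of genes showed that pattern with LP higher.

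*Anln* (chr9:22242402-22300501) was at 1.71, 2.55, 1.27, 1.79, and 1.08 CPM in LP males and 0.521, 0.772, 0.607, 0.392, and 0.385 CPM in NP males, on 20 to 39 counts and on 6 to 13 counts. All LP males lay above all NP males, and the log2 difference was 1.61 (SE 0.33, 3.06-fold). *Anln* passed the filter through the LP males, so this separation is a description only. *Ccnb2* (chr9:70314966-70328874) was at 1.99, 2.76, 1.57, 1.24, and 1.24 CPM in LP males and 0.521, 0.356, 1.03, 0.653, and 1.10 CPM in NP males, where LP males 4 and 5 stood just above NP male 5. Its log2 difference was 1.22 (SE 0.37), with the same limit. *Hmmr* was at 2.42, 2.49, 1.27, 0.872, and 1.03 CPM against 0, 0.297, 1.03, 0.522, and 0.385 CPM, with a log2 difference of 1.80 (SE 0.60). LP male 4 and LP male 5 overlapped NP male 3 for *Hmmr*. *Cenpf* (1.24, SE 0.48), *Ube2c* (0.91, SE 0.38), and *Plk1*, the polo-like kinase (0.81, SE 0.36), also had differences above 0, as had *Ccnb1*, cyclin B1 (0.79, SE 0.37), *Cdk1*, the mitotic kinase (0.81, SE 0.42), *Birc5*, also of the passenger complex (0.70, SE 0.36), *Prc1*, the midzone organizer (1.03, SE 0.61), *Kif20a* (0.61, SE 0.38), *Kif4* (0.62, SE 0.54), and *Ccna2* (0.53, SE 0.60). *Aurkb*, *Kif2c*, *Bub1b*, and *Bub1* were too low in males even for this filter, and their highest male levels were 1.31, 1.92, 0.925, and 0.690 CPM.

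**Figure D3:**
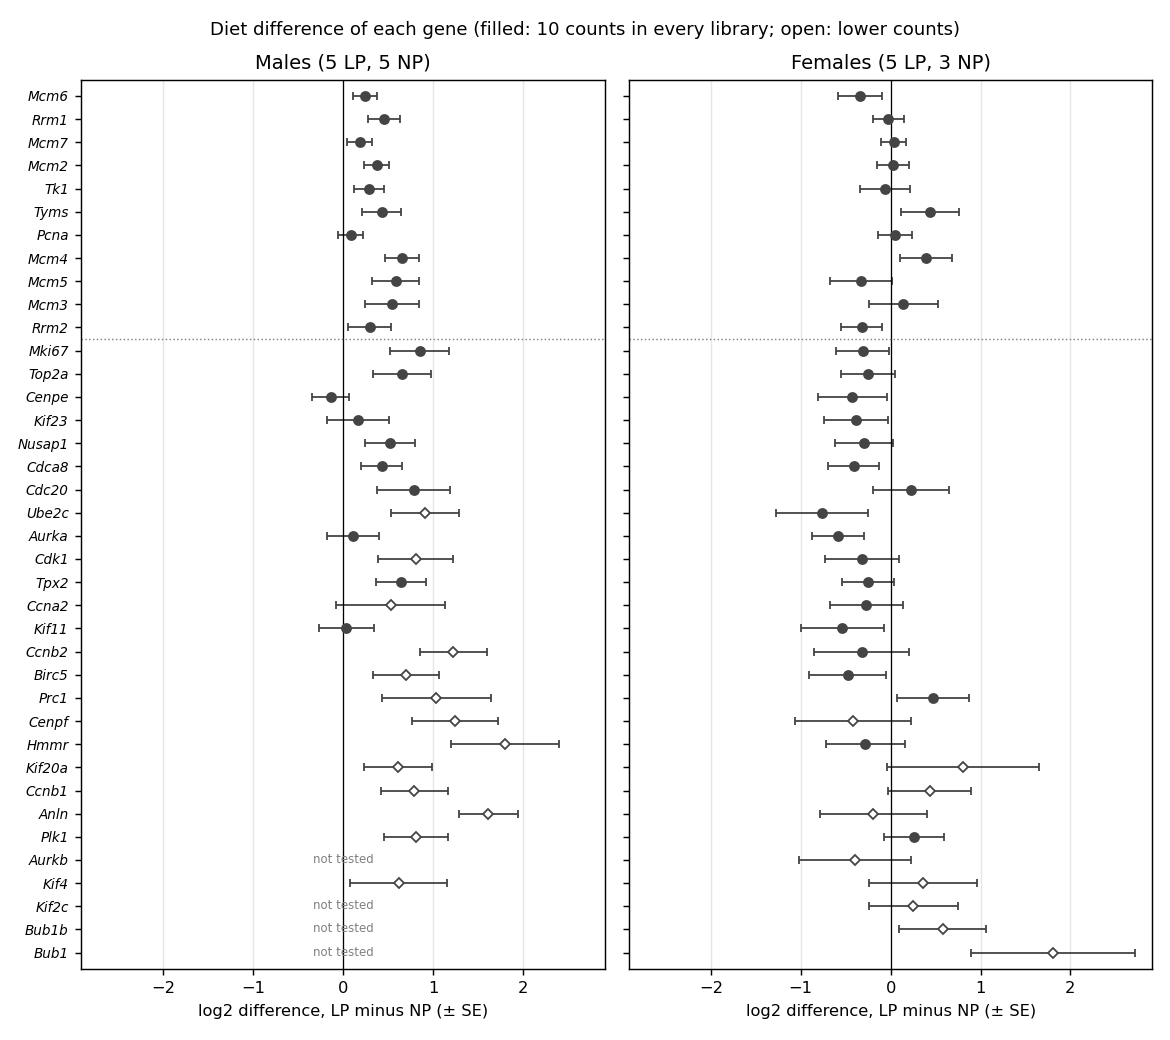
Log2 difference between LP and NP mice for each gene in males (left) and females (right), with SE from edgeR; filled points had at least 10 counts in every library compared, open points entered under the looser filter, and the dotted line parts the replication genes from the mitosis genes. Points of males lie to the right of 0 except Cenpe, at -0.14, and points of females scatter on both sides of 0.

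Markers of other cells were compared beside these values. Summed levels in LP and NP males were 97.0 to 142 and 88.6 to 124 CPM for 8 macrophage markers, 15.3 to 28.3 and 18.04 to 59.4 CPM for 10 lymphocyte markers, 25.0 to 34.0 and 26.9 to 61.9 CPM for 8 nephron progenitor markers, 182 to 415 and 193 to 353 CPM for 8 endothelial markers, and 528 to 1034 and 471 to 705 CPM for 8 markers of injured tubule. The groups overlapped for each of these lists. Markers of injured tubule summed to 859, 732, 528, 1034, and 905 CPM in LP males 1 to 5 and to 627, 705, 609.97, 471, and 599 CPM in NP males 1 to 5. 4 of 5 LP males thus lay above all NP males. Lymphocyte markers lay the other way, with most NP males above all LP males. They summed to 17.7, 28.31, 25.0, 15.7, and 15.3 CPM in LP males 1 to 5 and 28.39, 18.04, 30.5, 59.4, and 31.7 CPM in NP males 1 to 5. Of the 6 injury markers tested, 0 passed the adjusted threshold, 3 had an unadjusted P under 0.05 by edgeR, all with LP higher, and the median log2 difference was 0.35, beside 0.43 for the members. The median was 0.38 for 3 granulocyte markers tested, 0.16 for 7 macrophage markers, and 0.071 for 8 endothelial markers. It was -0.16 for 2 nephron progenitor markers and -0.40 for 2 lymphocyte markers. By edgeR 1 granulocyte marker, with LP higher, and 1 lymphocyte marker, with LP lower, had an unadjusted P under 0.05. Among lymphocyte markers, *Ms4a1*, *Cd79a*, *Cd3e*, and *Cd8a* were among those with 0 counts in at least 1 library, and *Jchain* made up most of the sum in males. The part of these cells in the member levels was not tested.

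In females no member was called by diet, and most mitosis genes lay below 0: 15 of 18 mitosis genes had log2 differences, LP minus NP, below 0 (median -0.31), and 6 of 11 replication genes had differences above 0 (median 0.025). Of 29 members tested among 13510 genes, 0 passed the adjusted threshold, as did 0% of all genes by edgeR, and DESeq2 called 0 of the members. No member reached an unadjusted P of 0.05, against 4.17% of all genes. The log2 difference, LP minus NP, was above 0 for 9 of 29 members, against 48.1% of all genes, with a median of -0.28, and for 12 of 32 members, with a median of -0.14, without the 3 libraries that stood apart. No member had LP and NP females that did not overlap, against 1.24% of all genes with LP higher and 1.36% with LP lower. With 5 against 3 mice, the exact permutation test cannot go below P = 0.0179.

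*Aurka*, the kinase of the spindle poles, had the smallest P value in females. It was at 1.87, 2.04, 1.43, 1.38, and 2.38 CPM in LP females 1 to 5 and 2.91, 1.98, and 3.25 CPM in NP females 1 to 3. All 5 LP females lay below the NP median, but LP females 2 and 5 overlapped NP female 2, and the log2 difference was -0.58 (SE 0.29, unadjusted P = 0.0710, adjusted P = 0.886, edgeR). *Ube2c* was at 2.03, 4.74, 2.06, 2.22, and 2.21 CPM against 2.59, 1.98, and 8.50 CPM. LP female 2 and NP female 3, both among the libraries that stood apart, were the highest of their groups, and the difference of -0.76 (SE 0.51, unadjusted P = 0.167, edgeR) was 0.012 without those 3 libraries. *Cdca8* was at 2.58, 2.53, 1.85, 2.28, and 1.70 CPM against 2.39, 2.34, and 3.87 CPM, again with NP female 3 highest (log2 difference -0.41, SE 0.28, unadjusted P = 0.175, edgeR).

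Of the 6 most abundant members, *Mcm6* was at 14.9, 33.4, 19.9, 19.1, and 24.7 CPM in LP females and 32.9, 30.3, and 21.8 CPM in NP females (log2 difference -0.34, SE 0.25), and *Tyms* at 26.9, 22.7, 14.1, 10.7, and 10.2 CPM against 14.3, 9.79, and 12.6 CPM (0.44, SE 0.32). LP females 1 and 2 were the highest for *Tyms*, and LP female 2 for *Mcm6*. The log2 differences of the other 4 were within 1 SE of 0: -0.026 for *Rrm1* (SE 0.17), 0.037 for *Mcm7* (SE 0.14), 0.025 for *Mcm2* (SE 0.18), and -0.066 for *Tk1* (SE 0.28). *Rrm1* was at 21.5, 28.9, 21.7, 17.5, and 21.1 CPM in LP females and 18.9, 25.2, and 22.7 CPM in NP females. *Mcm7* was at 19.3, 20.9, 18.3, 17.7, and 16.8 CPM and 20.6, 18.1, and 15.5 CPM. LP female 2 was the highest of all 8 for both genes, and NP females lay inside or just below the LP range. *Mcm2* was at 16.2, 18.8, 12.2, 14.96, and 12.7 CPM and 13.8, 13.3, and 16.4 CPM, and *Tk1* at 21.5, 14.5, 8.99, 13.8, and 12.6 CPM and 12.2, 12.4, and 19.3 CPM, with LP female 2 highest for *Mcm2* and LP female 1 for *Tk1*. *Mki67* was at 6.28, 9.58, 5.08, 4.75, and 10.1 CPM against 7.44, 9.85, and 9.05 CPM (log2 difference -0.31, SE 0.29). Under the looser filter *Anln*, at 0.506, 1.27, 1.01, 0.3003, and 1.99 CPM against 1.68, 0.901, and 0.967 CPM, had a difference of -0.19 (SE 0.60). The largest differences there, 1.80 for *Bub1* (SE 0.91) and 0.81 for *Kif20a* (SE 0.84), rested on few counts in NP females 1 to 3. These counts were 7, 4, and 0 for *Bub1* and 17, 28, and 0 for *Kif20a*.

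An interaction term in the model of 18 libraries, the LP minus NP difference in females minus that in males, asked whether the maternal diet went with unlike changes in males and females. None of the 21 members passed the adjusted threshold, against 2 of 12665 genes (0.0158%). DESeq2 gave none of the members an adjusted P, so it could not call any. The interaction was above 0 for 1 member, *Tyms*, at 0.0047 (SE 0.41), against 47.1% of all genes, and its median was -0.58. Below an unadjusted 0.05, with the difference lower in females, stood 4 members, against 1.84% of all genes: *Mki67* (-1.17, SE 0.47), *Cdca8* (-0.85, SE 0.35), *Tpx2* (-0.91, SE 0.38), and *Mcm6* (-0.59, SE 0.27), all with an adjusted P of 0.977 by edgeR. *Cdca8* was at 2.85, 2.35, 1.88, 1.74, and 2.00 CPM in LP males and 1.89, 1.48, 1.21, 1.24, and 2.03 CPM in NP males, where LP males 1 and 2 alone lay above all NP males, and in females NP female 3 was highest. *Tpx2* was at 1.78, 2.35, 0.964, 1.51, and 1.30 CPM in LP males, 0.977, 0.950, 0.668, 1.24, and 1.10 CPM in NP males, 1.67, 2.92, 2.49, 1.68, and 2.76 CPM in LP females, and 2.26, 2.88, and 3.04 CPM in NP females. 4 of 5 LP males thus lay above all NP males for *Tpx2*, and 4 of 5 LP females below the NP female median. With the looser filter, 7 of 38 members stood below an unadjusted 0.05 with the difference lower in females, against 1.96% of genes. The first of them was *Anln*, at -1.81 (SE 0.64). The looser filter can pass a gene through the group in which it is high, so this count is a description only. No single member thus showed unlike diet differences in males and females at the adjusted threshold.

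Males and females were then compared over both diets, again with edgeR over 12665 genes in the fit of 4 groups. Of the 21 members, 11 passed an adjusted P of 0.05, of which 10 were lower in males and 1 was higher. The share of members called, 11 of 21, stands beside 38.7% of all genes called, with 19.8% lower and 18.9% higher in males. DESeq2 called 12. The log2 difference, males minus females, was above 0 for 3 of 21 members, against 45% of all genes, and its median was -0.59. Called lower in males were 7 of 11 replication genes (*Rrm1*, *Rrm2*, *Tyms*, *Tk1*, *Mcm2*, *Mcm4*, and *Mcm5*) and 3 of 10 mitosis genes (*Tpx2*, *Top2a*, and *Mki67*). Without the 3 female libraries that stood apart, 10 of 21 were called, with *Tk1* and *Mki67* lost and *Kif23* gained, and the median was -0.35. The 38.7% belongs to the fit with those libraries, and the share of all genes called without them is not given here. Summed over the 38 members, males stood at 0.712 of females in CPM, a log2 ratio of -0.49 that came to -0.30 with TMM scaling over all genes. CPM thus set males lower against females than that scaling did. The fit took its TMM scaling over the genes it tested, so the -0.30 is not on the scale of the fitted differences.

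All 4 nucleotide enzymes were lower in males. *Rrm1* ranged over 8.68 to 21.8 CPM (median 12.7) in males and 17.5 to 28.9 CPM (median 21.6) in females. 9 of 10 males lay below every female, with LP male 1 the exception, and the log2 difference was -0.62 (SE 0.13, 1.53-fold lower, adjusted P = 0.00109, edgeR). *Tyms* ranged over 5.02 to 11.7 CPM (median 6.35) in males and 9.79 to 26.9 CPM (median 13.4) in females. Again 9 males lay below every female, and the log2 difference was -0.87 (SE 0.19, adjusted P = 0.00207, edgeR). *Rrm2* ranged over 2.33 to 5.73 CPM (median 3.52) in males and 4.91 to 8.48 CPM (median 6.03) in females, with 8 males below every female and a log2 difference of -0.73 (SE 0.17, adjusted P = 0.00226, edgeR). *Tk1*, at 6.32 to 12.1 CPM (median 8.18) in males and 8.99 to 21.5 CPM (median 13.2) in females, had 7 males below every female and a log2 difference of -0.61 (SE 0.16, adjusted P = 0.00662, edgeR). Without the 3 female libraries that stood apart, *Tk1* was no longer past the threshold (-0.35, adjusted P = 0.0631, edgeR).

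Of the 6 genes of the MCM helicase, 3 were called lower in males. *Mcm5* ranged over 2.54 to 7.90 CPM (median 3.76) in males and 4.50 to 11.7 CPM (median 8.08) in females, with a log2 difference of -0.91 (SE 0.22, adjusted P = 0.00396, edgeR), and *Mcm2* over 7.81 to 14.4 CPM (median 9.83) in males and 12.2 to 18.8 CPM (median 14.4) in females, with a difference of -0.44 (SE 0.11, adjusted P = 0.00486, edgeR). For *Mcm5* 7 males and for *Mcm2* 9 males lay below every female. *Mcm4* ranged over 3.20 to 9.39 CPM (median 5.07) in males and 4.28 to 14.5 CPM (median 9.26) in females and was also lower in males, by -0.56 (SE 0.16, adjusted P = 0.0109, edgeR). The sexes overlapped more for *Mcm4*, with 1 male below every female, where NP female 3 was the lowest female at 4.28 CPM. With no filter on low counts, the calls of *Mcm2* and *Mcm4* did not pass (adjusted P = 0.0561 and 0.0549, edgeR). *Mcm6*, the most abundant member, ranged over 22.8 to 38.4 CPM (median 29.0) in males and 14.9 to 33.4 CPM (median 23.3) in females. Its log2 difference lay on the other side of 0, at 0.32 (SE 0.14, adjusted P = 0.0707, edgeR), and passed the threshold without LP female 2 (0.39, adjusted P = 0.0190). *Mcm7* ranged over 10.4 to 19.4 CPM (median 15.1) in males and 15.5 to 20.9 CPM (median 18.2) in females, with a difference of -0.10 (SE 0.096, adjusted P = 0.412, edgeR). *Mcm3*, at -0.63 (SE 0.25, adjusted P = 0.0569, edgeR), and *Pcna*, at -0.15 (SE 0.11, adjusted P = 0.284, edgeR), did not pass the threshold either.

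Of the 10 mitosis genes tested, 4 were called. *Tpx2* ranged over 0.668 to 2.35 CPM (median 1.17) in males and 1.67 to 3.04 CPM (median 2.62) in females, with 8 males below every female and a log2 difference of -0.88 (SE 0.19, adjusted P = 0.00161, edgeR). *Top2a* ranged over 1.37 to 5.84 CPM (median 2.33) in males and 3.30 to 7.60 CPM (median 5.34) in females, with a difference of -0.87 (SE 0.23, adjusted P = 0.00614, edgeR). LP male 1 was the highest male for *Top2a* and for *Mki67*, which ranged over 1.89 to 9.11 CPM (median 3.82) in males and 4.75 to 10.1 CPM (median 8.25) in females and differed by -0.70 (SE 0.23, adjusted P = 0.0239, edgeR). For these genes 7 and 6 of the 10 males lay below every female, and *Mki67* was not called without the 3 female libraries that stood apart. *Cenpe* (chr3:134918298-134979372) was the 1 member higher in males, at 2.89 to 6.33 CPM (median 3.97) in males and 1.38 to 4.20 CPM (median 2.48) in females, with a log2 difference of 0.82 (SE 0.21, adjusted P = 0.00447, edgeR). All 10 males lay above the female median of *Cenpe*, and 4 lay above every female. *Nusap1* was also above 0 (0.43, SE 0.22, adjusted P = 0.134) but was not called. Neither were *Kif23* (-0.59, SE 0.26, adjusted P = 0.0780), *Cdc20* (-0.65, SE 0.31, adjusted P = 0.108), *Cdca8* (-0.31, SE 0.18, adjusted P = 0.174), *Aurka* (-0.33, SE 0.20, adjusted P = 0.222), and *Kif11* (-0.20, SE 0.28, adjusted P = 0.601), all below 0.

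**Figure D4:**
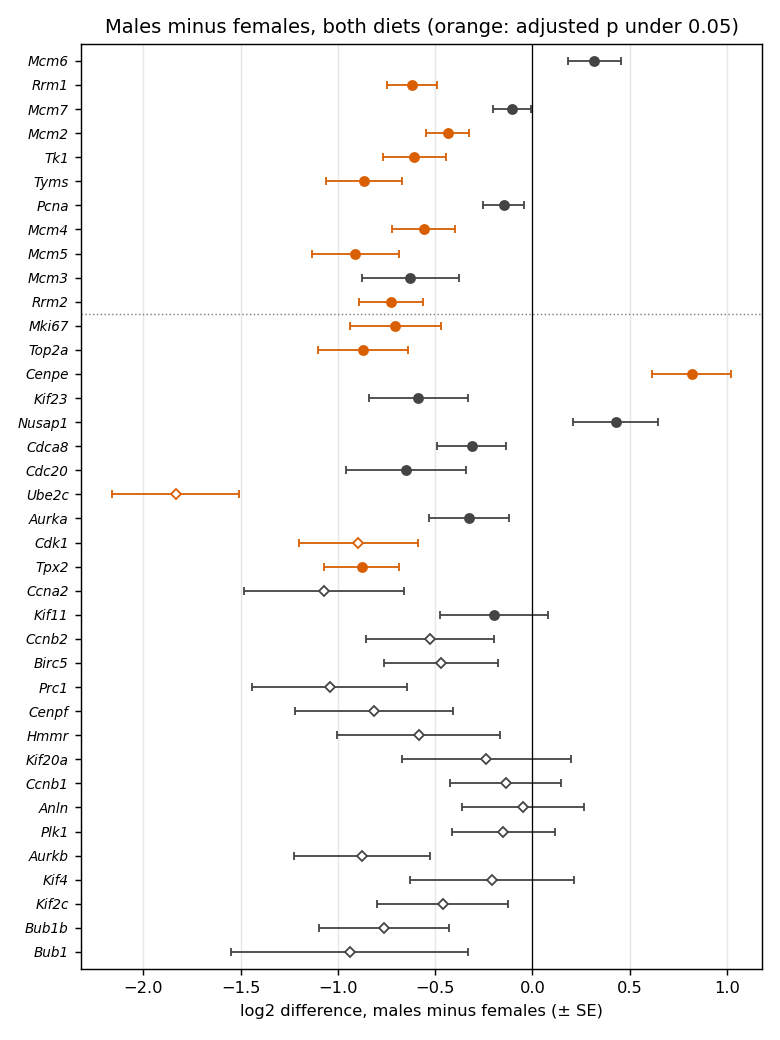
Log2 difference between males and females over both diets for each gene, with SE from edgeR; orange points passed an adjusted P of 0.05, filled points had at least 10 counts in every library, open points entered under the looser filter, and the dotted line parts replication from mitosis genes. Most orange points lie to the left of 0, lower in males, with Ube2c farthest at -1.83 and Cenpe alone on the right at 0.82. Open points, those of Ube2c and Cdk1 among them, are descriptions only.

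Under the looser filter, 13 of 38 members were called, against 33.9% of 17382 genes, and *Ube2c* and *Cdk1* joined the list. Both had fewer than 10 counts in some males. This filter can pass a gene through the group in which it is high, so the calls of *Ube2c* and *Cdk1* are descriptions only. Without the 3 female libraries that stood apart, this filter left 8 of 38 called: *Cdk1*, *Mcm2*, *Mcm5*, *Top2a*, *Tk1*, and *Mki67* were lost, *Kif23* was gained, and *Ube2c* was still called. The 33.9% belongs to the fit with those libraries, and the share of all genes called without them is not given here. *Ube2c* (chr2:164611768-164620742) was at 0.712, 1.38, 1.47, 0.918, and 1.35 CPM in LP males, 0.326, 0.653, 0.303, 0.848, and 0.935 CPM in NP males, 2.03, 4.74, 2.06, 2.22, and 2.21 CPM in LP females, and 2.59, 1.98, and 8.50 CPM in NP females. It was the 1 member whose 10 males all lay below all 8 females, as 3.52% of genes did, with a log2 difference of -1.83 (SE 0.33, 3.56-fold lower, adjusted P = 0.000301, edgeR). *Ube2c* overlaps *Tnnc2* on the opposite strand. *Cdk1*, which lies across from *Ank3*, ranged over 0.391 to 2.76 CPM (median 1.13) in males and 0.961 to 3.75 CPM (median 2.86) in females, and its log2 difference was -0.89 (SE 0.31, adjusted P = 0.0317, edgeR). Not called were *Prc1* (-1.04, SE 0.40, adjusted P = 0.0512), *Ccna2* (-1.07, SE 0.41, adjusted P = 0.0528), *Aurkb* (-0.88, SE 0.35, adjusted P = 0.0623), and *Bub1b*, a kinase of the spindle checkpoint (-0.76, SE 0.33, adjusted P = 0.0867). The other low members, among them *Ccnb1*, *Ccnb2*, *Birc5*, *Hmmr*, *Kif2c*, *Plk1*, *Kif4*, and *Anln*, had adjusted P values of 0.133 (*Cenpf*) or more.

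**Figure D5:**
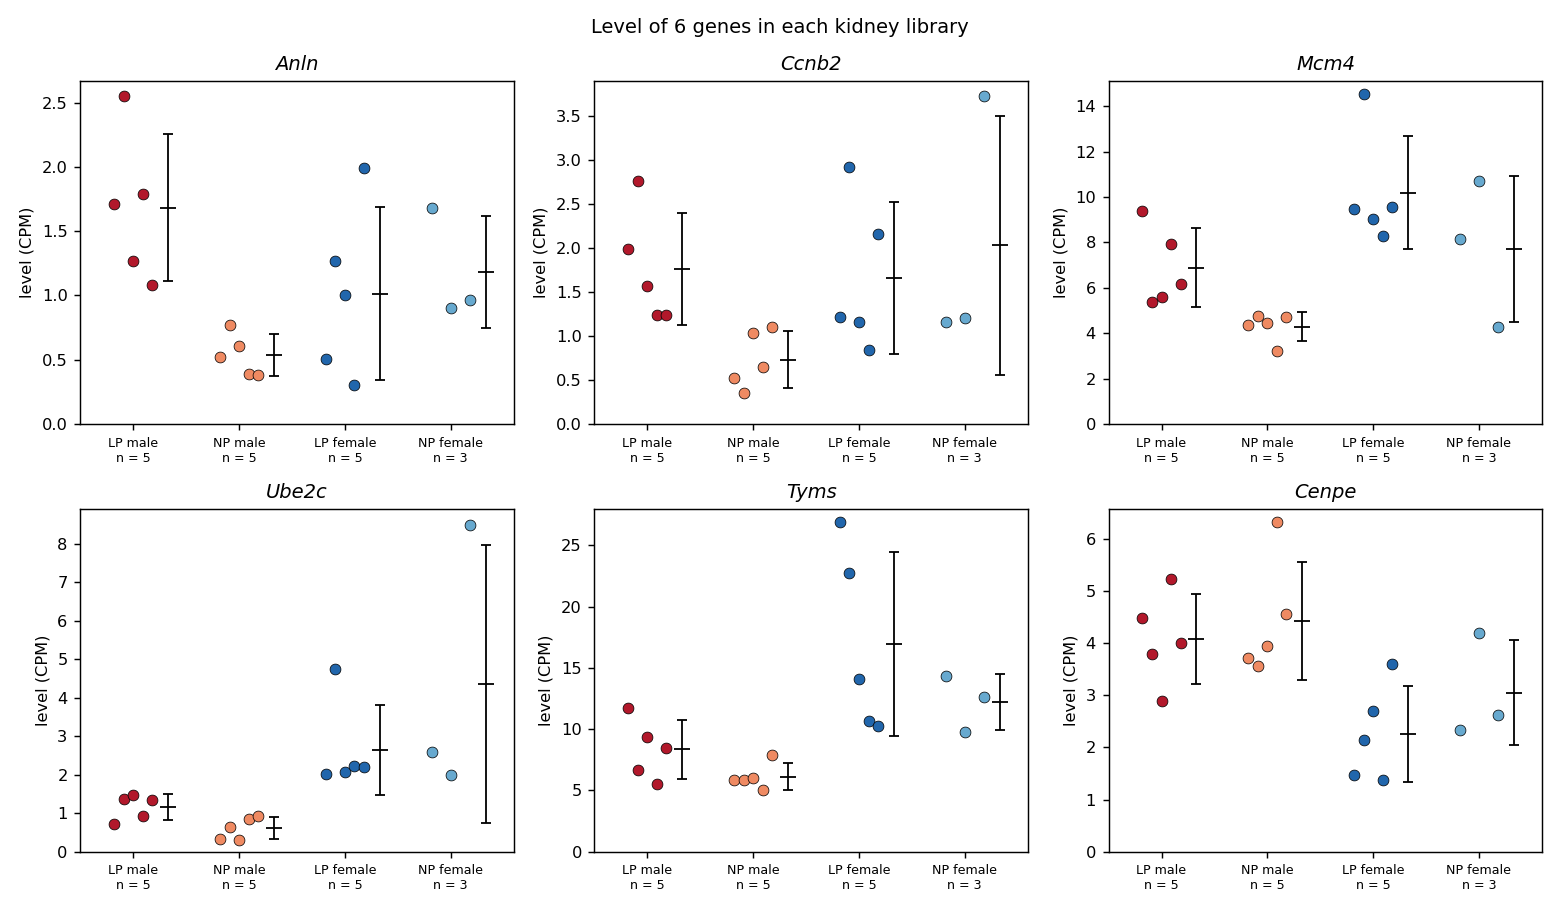
Level of Anln, Ccnb2, Mcm4, Ube2c, Tyms, and Cenpe in each library, in CPM; each point is 1 mouse, and bars show the mean ± SD of each group. LP males lie above NP males for Anln, Ccnb2, and Mcm4, all males lie below all females for Ube2c, and males are higher for Cenpe, with medians of 3.97 CPM in males and 2.48 CPM in females.

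Markers of injury and of immune cells were also compared between the sexes. The 8 markers of injured tubule summed to 471 to 1034 CPM in males and 1552 to 2794 CPM in females, without overlap, and *Spp1*, which encodes osteopontin, made most of that gap, at 214 to 601 CPM against 1237 to 1914 CPM. *Havcr1* and *Lcn2*, the best-known of these markers, overlapped between the sexes: *Havcr1* was at 4.10 to 45.8 CPM in males and 1.77 to 328 CPM in females, and *Lcn2* at 8.68 to 61.5 CPM and 9.31 to 51.0 CPM. *Jchain*, of antibody-secreting cells, was at 8.21 to 53.5 CPM in males and 0.647 to 4.19 CPM in females, although *Ms4a1*, a marker of B cells, did not exceed 0.354 CPM in any library. Macrophage markers summed to 88.6 to 142 CPM in males and 116 to 217 CPM in females. The part of these differences and of collection time in the member levels was not tested.

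The rest of the cell cycle was described with 2 further lists of mitosis and replication genes, without the members. By diet, 0 of 18 other mitosis genes and 0 of 38 other replication genes were called in males, with medians of 0.15 and 0.034, and 0 of 27 and 0 of 38 in females, with medians of -0.13 and -0.15. Between the sexes, 8 of 18 other mitosis genes (6 lower and 2 higher in males) and 17 of 36 other replication genes (12 lower and 5 higher) were called by edgeR, beside 38.7% of all genes, so these shares lay near the background. Lower in males were *Cdc25b*, the phosphatase that activates CDK1 (-1.10, SE 0.17, adjusted P = 9.71e-05), *Spc25*, a kinetochore subunit (-1.12, SE 0.18, adjusted P = 0.000114), *Fbxo5*, an inhibitor of the anaphase-promoting complex (-0.90, SE 0.15, adjusted P = 0.000179), *Mybl2*, a transcription factor of cycling cells (-1.45, SE 0.26, adjusted P = 0.000260), and *Pold2*, a subunit of DNA polymerase delta (-0.56, SE 0.13, adjusted P = 0.00260). Higher in males were *Nek2*, a centrosomal kinase (1.17, SE 0.16, adjusted P = 1.72e-05), *Mcm10*, a replication initiation factor (2.06, SE 0.17, adjusted P = 7.95e-08), *Prim2*, a primase subunit (1.05, SE 0.16, adjusted P = 5.00e-05), and *Orc4*, of the origin recognition complex (0.32, SE 0.075, adjusted P = 0.00248). *Mcm10* was at 12.2 to 19.9 CPM in males and 2.86 to 6.49 CPM in females.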

How the data were processed

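Per the labels and the study's methods, the authors removed adapters and reads of low quality, mapped the remainder with STAR (mouse build GRCm39), and deposited the counts of reads per gene that STAR gave. The counts that disregard strand were used here, untransformed. Of all reads in a library, 28.6 to 36.1% were counted on no gene, and those entries stayed out of library sizes and tests. Gene names came from GENCODE vM39 (78168 of 78239 genes matched), although the authors used an earlier release. Groups were taken from the sample labels, and library pairs within a group differed beyond sampling noise.

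Fits were made in edgeR 4.0.16 (TMM scaling, quasi-likelihood test, Benjamini-Hochberg adjustment over all genes tested, threshold 0.05) under R 4.3.3, on genes whose count reached 10 in each library of the comparison: LP against NP males, LP against NP females, and a model of 4 groups for the interaction and for the sexes. The fit was tested on simulated data. Single genes also had an exact two-sided permutation test on log2(normalized count + 1). Tables and plots were made in Python 3.11.15 with pandas 2.3.3, numpy 2.4.6, and matplotlib 3.10.9. Alternatives were filterByExpr, DESeq2 size factors, no filter on low counts, a minimum of 10 on the mean count, the DESeq2 1.42.0 Wald test, limma 3.58.1 with voom and quality weights, a replicate block, a 1.5-fold rule for calls, and leaving out each library. Leaving out LP males 1 and 2 together, and joining filterByExpr with omitted libraries, were chosen after seeing the data.

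The members, the other gene lists, and the markers were chosen with earlier results of these data known. Every member was named. Full values were given for the 6 members of highest mean CPM, the 3 with the smallest unadjusted P in each comparison, those called (at most 10 by adjusted P), and those whose LP and NP libraries did not overlap within a sex, and for up to 5 called genes of each other cell cycle list. A gene that this rule would name and a marker gene are not reported here. *Hmmr*, *Ube2c*, and *Cdk1* were described in more detail after their values had been seen. No P value was computed for a sum over members. Intervals and limits from counts of 0 cover counting error only.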

Additional observations from a re-analysis of the deposited data

Results flagged for a closer look

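In 6 of 123 sets of 5 libraries tested (4.88%), 1 library lay farther from the rest than Dixon's 95% critical value allows. Chance alone gives about 1 in 20 sets, or 6.15 here. The same libraries entered again for each gene and sum, so the sets are not separate. *Kif20a* was at 2.28 CPM in LP male 1 (32 counts) and at 0.756 to 1.06 CPM in the other LP males. *Kif4* was at 0.240 CPM in LP female 4 (4 counts) and at 1.06 to 1.37 CPM in the other LP females. LP female 2 was high for *Ube2c*, at 4.74 CPM (86 counts) against 2.03 to 2.22 CPM, and for *Mcm4*, at 14.5 CPM (264 counts) against 8.29 to 9.55 CPM. *Mcm4* was low in NP male 4, at 3.20 CPM (49 counts) against 4.36 to 4.75 CPM. The summed replication genes were at 158 CPM in LP male 1 and at 111 to 120.03 CPM in the other LP males. No member had every male moving one way by diet and every female the other way.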

How the results depend on the processing

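No member was called by diet or in the interaction under any alternative tried, though DESeq2 gave the members no adjusted P in the interaction. Between the sexes, the members called ran from 6 of 21 tested (replicate block) to 14 of 37 (minimum on the mean count). Of all genes, 2370 to 5887 were called between the sexes under the alternatives, and the share under the minimum on the mean count is not given here. Replicate numbers did not pair the libraries: the median correlation of same-numbered libraries was -0.155 in 5 male pairs (-0.297 to 0.327) and -0.438 in 3 female pairs (-0.607 to -0.388). A fit with a replicate block called 6 of 21 members between the sexes in place of 11, with the calls of *Mcm2*, *Mcm4*, *Mcm5*, *Mki67*, *Tk1*, and *Top2a* lost and that of *Kif23* gained, and left the diet and interaction counts at 0. The diet difference of the male sum, 0.42 on the log2 scale, was 0.63 as a mean of log2(CPM + 0.1). Over all genes, males had 5 calls by diet (19 by DESeq2, 9 without a filter, 2 with the block, 1 in the model of 4 groups), females 0 (at most 9), the interaction 2 (at most 7), and the sexes 4900 (2976 with the block, 2370 with the 1.5-fold rule); the causes were not tested. Some differences changed sign, none of them called. In the diet difference of females, *Mcm7* was -0.063 with limma-voom and -0.047 or, with filterByExpr, -0.036 without the 3 libraries that stood apart. *Rrm1* was 0.024 without a filter, 0.00065 with filterByExpr, 0.13 with limma-voom, and 0.059 with the replicate block. Without those 3 libraries, *Tk1* was 0.027 and *Ube2c* 0.012, or 0.038 and 0.023 with filterByExpr. The interaction of *Tyms* was -0.47 with limma-voom, and -0.39, or -0.36 with filterByExpr, without those 3 libraries. Leaving out 1 library at a time gave diet differences in females of -0.035 to 0.18 for *Mcm2*, -0.017 to 0.13 for *Mcm7*, -0.13 to 0.066 for *Rrm1*, -0.23 to 0.25 for *Tk1*, and -1.11 to 0.24 for *Ube2c*, and interactions of -0.21 to 0.14 for *Tyms*. Depth limits the low mitosis genes: 17 of the 38 members had fewer than 10 counts in at least 1 library.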

Other observations

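Genes that act before DNA replication, and genes that hold cells out of the cycle, were not called by diet in either sex by edgeR. In males, 8 of 11 genes of the early cyclins and their kinases and 13 of 27 inhibitor and quiescence genes had log2 differences above 0, LP minus NP. In each list 1 gene had an unadjusted P under 0.05 by edgeR in males, with LP higher for the cyclins and kinases and LP lower for the inhibitors. In females 5 of 11 and 12 of 27 were above 0. Between the sexes 3 of 11 and 8 of 27 were called. *E2f3*, a transcription factor of the E2F family, was higher in males (log2 difference 0.78, SE 0.11, adjusted P = 3.07e-05, edgeR), at 8.99 to 14.03 CPM in males and 5.89 to 8.59 CPM in females. *Cdk6*, a kinase that cyclin D activates, was also higher in males (0.71, SE 0.12), and *Ccnd3*, cyclin D3, was lower (-0.49, SE 0.072), at 36.5 to 52.6 CPM in males and 61.5 to 76.3 CPM in females. *Cdk6* was at 28.3 to 36.8 CPM in males and 15.04 to 26.49 CPM in females.

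The inhibitors called between the sexes stood on both sides of 0. *Cdkn1c* (p57) was lower in males by 1.06 on the log2 scale (SE 0.17, adjusted P = 8.57e-05, edgeR), at 5.38 to 11.3 CPM in males and 12.9 to 26.4 CPM in females. *Cdkn1b* (p27), at -0.41 (SE 0.080), and *Rb1*, the retinoblastoma protein that restrains E2F factors, at -0.53 (SE 0.095), were lower in males too. *Ccng1*, a target of p53, at 0.65 (SE 0.098), and *Tob1*, an antiproliferative gene, at 0.48 (SE 0.090), were higher in males. These values stand beside the 38.7% of all genes called between the sexes, and collection time and sex cannot be told apart for them either.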
